A study of Homo sapiens and Mus musculus with 21 samples.

Results

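The CLK and SRPK splicing kinases comprised 7 genes that were chosen by name: CLK1, CLK2, CLK3, CLK4, SRPK1, SRPK2 and DYRK1A. All 7 were among the 19848 genes of the hairpin table and the 23037 genes of the drug table, and all 7 passed the filters on low values, which left 15022 and 16825 genes. The 3 kinases CLK1, CLK2 and CLK3 held 5 of the 4499 RNA immunoprecipitation (RIP) peaks. The mouse genes of the same names were all present in both thymus matrices.

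The study concerned DHX15, an RNA helicase that releases spliced introns and takes part in ribosome assembly. CUTLL1, an established line from human T-cell leukemia, gave 3 RNA-seq libraries each with the DHX15 hairpins shDHX15-1 and shDHX15-2 and with shGFP, a lentiviral control hairpin against GFP. It also gave 3 libraries treated with ciclopirox, an antifungal that chelates iron, at 5 µM by the name of the deposited table, and 3 with the solvent DMSO, as well as a RIP experiment with 2 DHX15, 1 IgG and 1 input library. Mouse thymus gave 1 single-cell library from Dhx15 KO and 1 from Dhx15fl/fl mice, both 6 weeks old. The Cre line, the cells that lost Dhx15 and the number of animals per thymus library were not given in the sources used here. No label calls the replicates separate cultures, so p-values measure only how far these libraries spread, and that spread may be technical.

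CLKs and SRPKs phosphorylate serines in the arginine-serine (RS) domains of SR proteins, which select splice sites. SRPKs act mainly in the cytoplasm and license SR proteins for import into the nucleus, where CLKs phosphorylate them further and release them from nuclear speckles. CLK1 and CLK4 pre-mRNAs are known for retained introns that can be held in the nucleus and spliced on demand when CLK activity falls. DYRK1A, from the neighbouring DYRK family, phosphorylates splicing factors as well as transcription factors such as NFAT. The RNA values here are gene totals, which do not separate spliced from intron-retaining transcripts.

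Library totals behind the hairpin values were 59702150 to 62633707 reads, and the drug libraries had 32451469 to 37177509 reads in genes. In the hairpin libraries CD3D, a T-cell receptor chain gene, was at 241 to 312 RPKM (reads scaled to gene length and library size), and all 6 T-lineage genes examined were at 26.3 RPKM or more. CSF1R, a myeloid receptor gene, was at most at 0.0159 RPKM, while CD79A, a B-lineage gene, was at 23.6 to 59.6 RPKM. Hairpin replicates varied beyond counting noise, with a chi-square per degree of freedom of 2.72 to 6.94. DMSO replicate 1 stood apart, at 38.2 and 39.1 against the other DMSO libraries, which were at 3.44 against each other. The ciclopirox libraries were at 14.3, 14.3 and 27.5 against each other, above the values of every hairpin group. DHX15 itself was at 17.1, 17.3 and 16.5 RPKM with shDHX15-1, at 16.1, 16.5 and 16.8 RPKM with shDHX15-2 and at 42.8, 44.1 and 43.2 RPKM with shGFP, so the hairpin means were 0.391 and 0.380 of the control mean (limma adjusted p = 1.06e-09 and 1.83e-09). In bulk RNA, fewer cells of a kind and less RNA per cell cannot be told apart.

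The sequences around the start of CLK1 and CLK3 are shown because a DHX15 RIP peak begins there, and that of CLK4 because it is the paralog that moved with CLK1 without having a peak. They are RefSeq windows of 300 bases around a transcript start on GRCh38.p14, on the strand of the gene. For CLK1 it is the window of its second listed start, and for CLK3 that of its first. The other CLK3 window, chr15:74615586-74615885, lies downstream of the peak at the first start and held 0 bases of a peak. Capitals mark the bases inside the RIP peak in CLK1 (34 bases, window chr2:200864512-200864811, minus strand) and CLK3 (50 bases, window chr15:74608122-74608421, plus strand), and the motif CACGTG (an E-box) in CLK4 (window chr5:178627001-178627300, minus strand).
CLK1: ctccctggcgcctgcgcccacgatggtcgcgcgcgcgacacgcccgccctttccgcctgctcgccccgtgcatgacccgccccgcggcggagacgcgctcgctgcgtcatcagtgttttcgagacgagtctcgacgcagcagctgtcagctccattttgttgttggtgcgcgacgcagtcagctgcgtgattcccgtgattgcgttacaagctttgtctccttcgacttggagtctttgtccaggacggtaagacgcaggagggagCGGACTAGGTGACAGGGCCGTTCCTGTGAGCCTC
CLK3: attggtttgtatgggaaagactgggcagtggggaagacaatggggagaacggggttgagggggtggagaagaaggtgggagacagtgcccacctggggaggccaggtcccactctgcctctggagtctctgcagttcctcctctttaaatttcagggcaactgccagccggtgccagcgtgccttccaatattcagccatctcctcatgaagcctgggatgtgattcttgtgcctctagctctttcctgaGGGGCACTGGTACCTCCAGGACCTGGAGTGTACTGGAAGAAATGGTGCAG
CLK4: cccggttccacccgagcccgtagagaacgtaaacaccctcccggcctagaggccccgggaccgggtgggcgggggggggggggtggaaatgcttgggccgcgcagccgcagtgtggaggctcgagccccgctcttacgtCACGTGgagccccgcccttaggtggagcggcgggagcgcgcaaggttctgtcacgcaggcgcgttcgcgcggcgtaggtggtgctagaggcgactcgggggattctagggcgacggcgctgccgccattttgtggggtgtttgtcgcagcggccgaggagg
The motif CACGTG reads the same on both strands and was found in 7.26% of all 35116 RefSeq windows of this length. Among the kinases it was found in the 1 window of CLK2, the 1 window of CLK4 and 1 of the 6 windows of DYRK1A, while neither CLK1 window held it. The background share counts windows, and kinases with more windows had more chances to hold a motif, so a count of kinases cannot be set beside it. The motif CCAAT, looked for on both strands, was in windows of CLK3 and DYRK1A and in 34.6% of all windows.

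The RIP peaks lay on the strand of their gene and had modest enrichment in the authors' deposited list, where folds start at 1.5 and have a median of 1.65. In CLK1 the peak covered 300 bases at chr2:200864246-200864545, which starts 113 bases into the gene (RefSeq span chr2:200853009-200864658, minus strand), with a fold of 1.52 in the authors' deposited list. CLK2 (chr1:155262868-155273504, minus strand) held a peak of 2108 bases at chr1:155268720-155270827 with a fold of 1.90 and a peak of 216 bases at chr1:155268106-155268321 with a fold of 1.66 in the authors' deposited list. CLK3 (chr15:74608372-74630201, plus strand) held a peak of 6552 bases that began at the first base of the gene, chr15:74608372-74614923, with a fold of 1.55, and a peak of 75 bases at chr15:74619981-74620055 with a fold of 1.91 in the authors' deposited list. The gene spans of CLK4, SRPK1, SRPK2 and DYRK1A held none of the listed peaks. So 3 of 7 kinases had a peak, beside 24.2% of the 11362 tested genes that could be placed on GRCh38, and none had a peak of at least 2-fold, which 4.74% of those genes had. The list has no replicate values, so no test was made, and the peaks were not assigned to exons or introns.

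**Figure D1:**
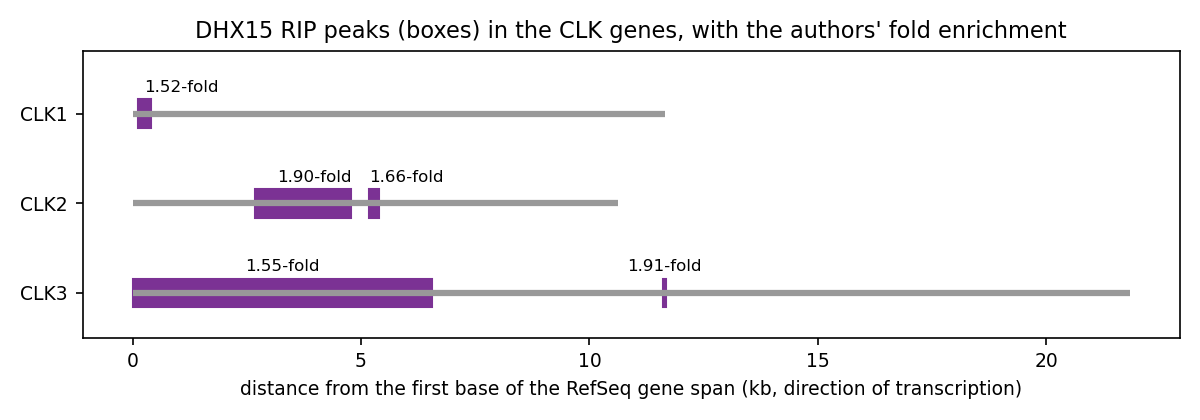
DHX15 RIP peaks along CLK1, CLK2 and CLK3. Grey lines are RefSeq gene spans, the x axis is the distance from the first base of the gene in kb, boxes are peaks, and the labels give the authors' fold enrichment. The CLK1 peak and the long CLK3 peak lie at the start of the gene span, while both CLK2 peaks lie inside it. CLK3 has a further listed start downstream of its long peak.

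CLK1 and CLK4, the closest paralogs in the group, had about 2-fold higher RNA in DHX15-depleted cells. CLK1 was at 25.1, 26.9 and 25.5 RPKM with shDHX15-1, at 22.3, 23.0 and 23.2 RPKM with shDHX15-2 and at 12.2, 12.2 and 12.1 RPKM with shGFP. Every knockdown library was above every control library, and the means were 2.12-fold and 1.87-fold that of shGFP. On the log2(RPKM + 1) scale CLK1 rose by 1.02 ± 0.03 (SE) with shDHX15-1 (limma adjusted p = 7.32e-09) and by 0.85 ± 0.03 with shDHX15-2 (limma adjusted p = 4.38e-08). This scale understates the change of genes with low values. Of all genes tested, 1.61% rose at least as far with shDHX15-1 and 1.29% with shDHX15-2. CLK4, the scarcest kinase per length in control cells, was at 4.38, 4.77 and 4.80 RPKM with shDHX15-1, at 4.11, 4.25 and 4.24 RPKM with shDHX15-2 and at 2.16, 2.02 and 2.16 RPKM with shGFP. The groups did not overlap, and its means were 2.20-fold and 1.99-fold that of shGFP. CLK4 rose by 0.86 ± 0.04 (limma adjusted p = 1.31e-07) and by 0.74 ± 0.04 (limma adjusted p = 6.19e-07) with the 2 hairpins, which 3.1% and 2.0% of genes matched or exceeded. The counting behind these values rests on 7948 to 8347 reads of CLK1 and 2171 to 2297 reads of CLK4 per shDHX15-1 library, and on 3800 to 3918 and 978 to 1074 reads per shGFP library. The handling of reads shared by these paralogs was not given in the sources used here.

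CLK2 and CLK3, whose substrates overlap with those of CLK1, rose less. CLK2 was at 19.7, 19.4 and 19.9 RPKM with shDHX15-1, at 20.2, 20.2 and 19.8 RPKM with shDHX15-2 and at 14.8, 15.2 and 14.3 RPKM with shGFP. All 6 knockdown libraries were above the controls, by 1.33-fold and 1.36-fold in the means, a log2 change of 0.39 ± 0.03 (limma adjusted p = 9.34e-07) and 0.42 ± 0.03 (limma adjusted p = 1.19e-06). CLK3 was at 4.49, 4.57 and 4.66 RPKM with shDHX15-1, at 4.03, 3.95 and 4.18 RPKM with shDHX15-2 and at 3.65, 3.67 and 3.72 RPKM with shGFP. Its rise was 0.25 ± 0.03 with shDHX15-1 (limma adjusted p = 5.98e-05) and 0.11 ± 0.03 with shDHX15-2 (limma adjusted p = 0.0108). The CLK3 call with shDHX15-2 was lost when each library was centred on its median (0.07, limma adjusted p = 0.0646) and after quantile normalisation (0.04, limma adjusted p = 0.283).

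SRPK1, the SRPK with the higher level in control cells, was the kinase that fell. It was at 20.7, 20.5 and 19.7 RPKM with shDHX15-1, at 15.5, 15.8 and 15.7 RPKM with shDHX15-2 and at 24.6, 24.6 and 24.7 RPKM with shGFP. The 3 groups did not overlap, and the means were 0.825 and 0.636 of the shGFP mean. SRPK1 fell by 0.27 ± 0.02 on the log2 scale with shDHX15-1 (limma adjusted p = 4.36e-06) and by 0.62 ± 0.02 with shDHX15-2 (limma adjusted p = 5.21e-08), and 17.0% and 2.43% of genes fell at least as far. Its paralog SRPK2 was at 20.7, 22.0 and 20.9 RPKM with shDHX15-1, at 23.2, 24.6 and 24.2 RPKM with shDHX15-2 and at 20.8, 20.9 and 20.9 RPKM with shGFP. The shDHX15-1 libraries of SRPK2 overlapped the controls (0.02 ± 0.03, limma adjusted p = 0.483), while it rose by 0.19 ± 0.03 with shDHX15-2 (limma adjusted p = 0.0003). The sign for SRPK2 with shDHX15-1 turned with the scaling, and it was called lower after median centring (−0.085, limma adjusted p = 0.0253), with edgeR (−0.068, adjusted p = 0.0324) and with DESeq2 (−0.076, adjusted p = 0.0187). For the mean of both hairpins SRPK2 rose by 0.11 ± 0.02 (limma adjusted p = 0.00335), a call that was lost after median centring (0.03, limma adjusted p = 0.237) and with DESeq2 (0.05, adjusted p = 0.0971).

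DYRK1A was at 11.1, 11.2 and 11.5 RPKM with shDHX15-1, at 9.58, 9.73 and 9.59 RPKM with shDHX15-2 and at 8.07, 8.18 and 8.26 RPKM with shGFP. The 3 groups did not overlap, and DYRK1A rose by 0.42 ± 0.02 with shDHX15-1 (limma adjusted p = 3.76e-07) and by 0.21 ± 0.02 with shDHX15-2 (limma adjusted p = 4.21e-05).

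**Figure D2:**
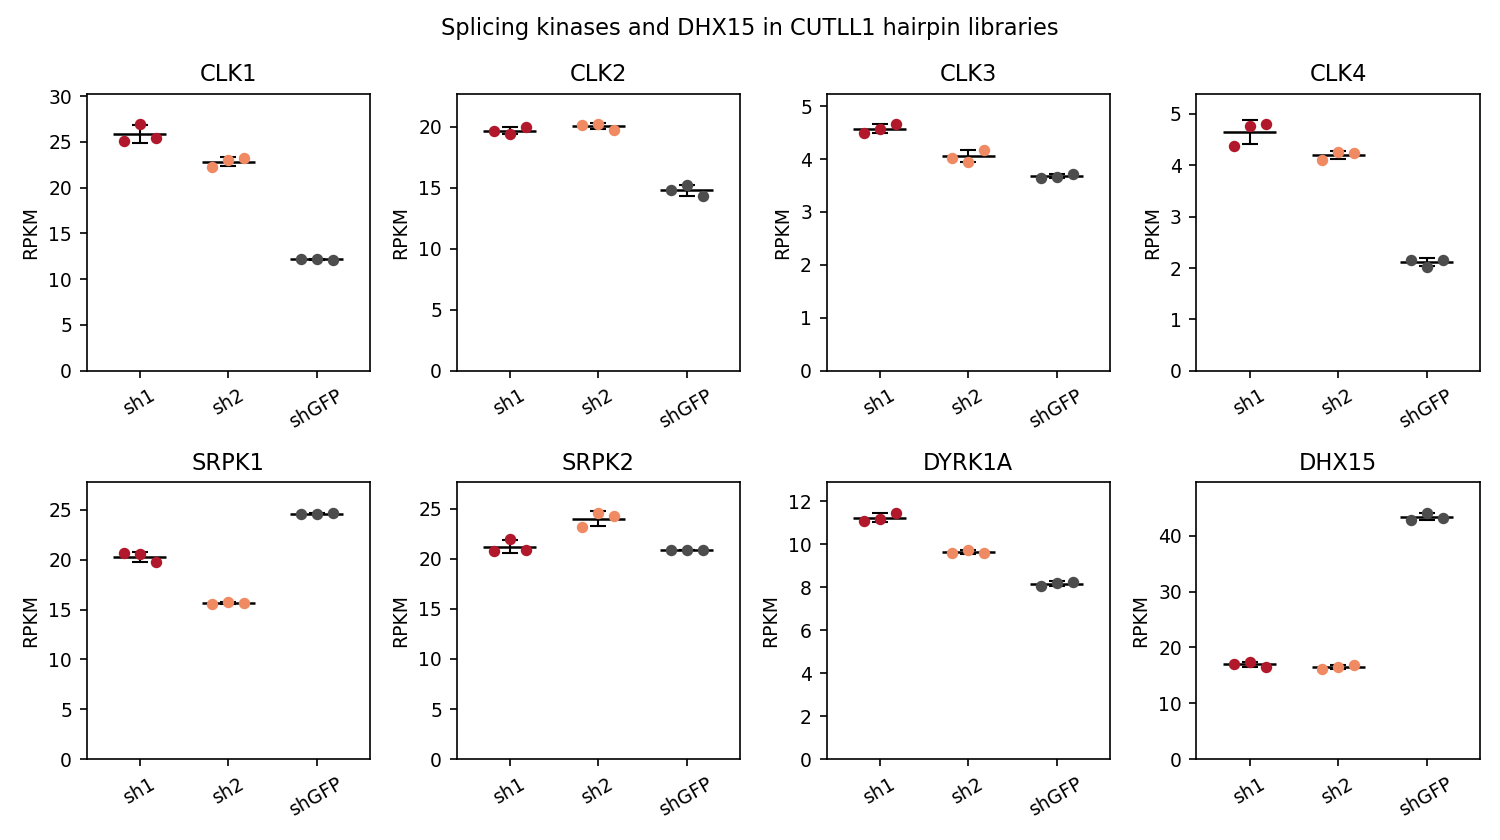
RPKM of the 7 kinases and DHX15 in each hairpin library (points; sh1 and sh2 are shDHX15-1 and shDHX15-2), with the group mean (line) and SD (bar, n = 3). CLK1 and CLK4 sit at about 2 times the shGFP level with both hairpins, and SRPK1 sits below it.

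For the mean of both hairpins 6 kinases rose and 1 fell, which makes 7 of 7 called, beside 72.9% of all genes tested. With shDHX15-1 alone 5 kinases were called higher and 1 lower, beside 74.3% of genes called in all, 45.4% higher and 28.9% lower. With shDHX15-2 alone 6 were called higher and 1 lower, beside 65.7% of genes called in all, 35.6% higher and 30.1% lower. With both hairpins 5 kinases were higher, beside 28.8% of genes, and 1 was lower, beside 20.4%. Hairpin and shGFP libraries did not overlap for 6 of 7 kinases with shDHX15-1, beside 76.3% of genes, and for 7 of 7 with shDHX15-2, beside 69.8%. The calls and the separation of groups were thus common among all genes, while 1.13% of genes rose at least as far as CLK1 and 2.0% as far as CLK4 for the mean. The median change of all genes with shDHX15-1 was 0.09, and median centring took it to −0.02, a shift of over 0.1. Higher calls outnumbered lower ones by 6822 to 4340 with shDHX15-1, while after median centring they numbered 5058 against 5940. For the mean the counts were 6401 against 4543, and 4972 against 5785 after median centring.

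The hairpins differed from each other, while their difference in DHX15 RNA did not pass the test (log2 difference −0.04 ± 0.03 for shDHX15-2 against shDHX15-1, limma adjusted p = 0.2). In that direct comparison 6 of 7 kinases were called, beside 61.1% of all genes, 1 of them higher (23.2% of genes) and 5 lower (37.9% of genes). All genes split into 3484 higher and 5693 lower, but into 4865 and 4133 after median centring. SRPK1 was lower with shDHX15-2 by 0.35 ± 0.02 (limma adjusted p = 2.09e-06), and DYRK1A by 0.20 ± 0.02 (limma adjusted p = 7.81e-05). CLK1 differed by −0.17 ± 0.03 (limma adjusted p = 0.000855) and CLK3 by −0.14 ± 0.03 (limma adjusted p = 0.00325), where the CLK3 call was lost under median centring (−0.07, limma adjusted p = 0.0606) and quantile normalisation (−0.05, limma adjusted p = 0.147). CLK4 differed by −0.12 ± 0.04 (limma adjusted p = 0.0288), a call that was lost under median centring, quantile normalisation, edgeR and DESeq2 and without any 1 of 5 knockdown libraries. SRPK2 was higher with shDHX15-2 by 0.17 ± 0.03 (limma adjusted p = 0.000783). CLK2 showed 0.03 ± 0.03 (limma adjusted p = 0.409), which was called under median centring (0.09, limma adjusted p = 0.0196), with edgeR (0.10, adjusted p = 0.0107) and with DESeq2 (0.09, adjusted p = 0.0135).

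Per length, the order of the kinases changed with knockdown. With shDHX15-1 CLK1 was the highest at 25.8 ± 0.97 RPKM (SD, n = 3), followed by SRPK2 at 21.2 ± 0.66, SRPK1 at 20.3 ± 0.50 and CLK2 at 19.7 ± 0.26 RPKM, where the ranges of SRPK1 and CLK2 overlapped. With shDHX15-2 SRPK2 at 24.0 ± 0.73 and CLK1 at 22.8 ± 0.50 RPKM overlapped at the top, and SRPK1 was below CLK2 at 15.7 ± 0.13 RPKM. In shGFP cells SRPK1 led at 24.6 ± 0.07 RPKM, before SRPK2 at 20.8 ± 0.01, CLK2 at 14.8 ± 0.44, CLK1 at 12.2 ± 0.08, DYRK1A at 8.17 ± 0.09, CLK3 at 3.68 ± 0.04 and CLK4 at 2.11 ± 0.08 RPKM, with no overlap between neighbours. The place of CLK3 is uncertain, since its RPKM values imply a length of 20443 bases, 93.6% of its gene span, while the other 6 kinases have 2.23% to 44.4% of theirs.

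Within a library, the ratio of paralogs removes the library scale. The log2 ratio of SRPK1 to SRPK2 was −0.005, −0.098 and −0.084 with shDHX15-1, −0.578, −0.639 and −0.626 with shDHX15-2 and 0.238, 0.239 and 0.244 with shGFP. The knockdown libraries were all below zero and the control libraries all above it, a mean difference of −0.58 that reached the smallest two-sided p an exact permutation test of 6 against 3 libraries can give (p = 0.0238, 0.133 after adjustment over 12 ratio tests). The log2 ratio of CLK2 to CLK3 was 2.21 ± 0.12 in the 6 knockdown libraries and 2.01 ± 0.05 in the 3 shGFP libraries (SD), a difference of 0.20 (exact permutation p = 0.0238, adjusted 0.133). That SD spans 2 hairpins that differed, at 2.11 ± 0.02 with shDHX15-1 and 2.31 ± 0.06 with shDHX15-2 (SD, n = 3). Their differences from shGFP were 0.10 and 0.30. CLK1 and CLK4 had a log2 ratio of 2.46 ± 0.04 in knockdown and 2.53 ± 0.06 in shGFP libraries (SD), a difference of −0.07 with overlapping values (exact permutation p = 0.119, adjusted 0.143). The difference for CLK1 to CLK4 was −0.035 without shGFP replicate 2. Exact permutation tests of 3 against 3 libraries cannot go below p = 0.1, and with those among the 12 tests even the smallest p of the 6 against 3 tests could not pass 0.05 after adjustment, so the adjusted values say nothing for or against a change in any ratio.

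With ciclopirox SRPK1 and DYRK1A fell, while no CLK gene passed the test. SRPK1 had 4685, 4400.3 and 5229 normalised counts with ciclopirox and 7774, 8185 and 8012 with DMSO. All treated libraries were below all DMSO libraries, a separation seen in 56.0% of genes in either direction, at 0.597 of the DMSO mean, and SRPK1 fell by 0.75 ± 0.09 on the log2(normalised count + 1) scale (limma adjusted p = 7.75e-05). Without DMSO replicate 1 its fall was 0.77 (limma adjusted p = 8.27e-06). Among all genes 11.9% fell at least as far. DHX15 fell by a like amount, 0.74 ± 0.09 (limma adjusted p = 8.7e-05), with 9218, 8967 and 10216 normalised counts with ciclopirox and 14498, 16688 and 16311 with DMSO. Whether the change in SRPK1 goes with that in DHX15 was not tested. DYRK1A had 2635, 3082 and 3106 normalised counts with ciclopirox and 3393, 3747 and 3813 with DMSO. It fell by 0.31 ± 0.10 (limma adjusted p = 0.0238), a call that was lost after quantile normalisation (−0.15, limma adjusted p = 0.257), without DMSO replicate 2 (−0.29, limma adjusted p = 0.0866), without DMSO replicate 3 (−0.28, limma adjusted p = 0.0923) and without ciclopirox replicate 1 (−0.24, limma adjusted p = 0.116), and that held without DMSO replicate 1 (−0.37, limma adjusted p = 0.00517). It was lower than in DMSO here and higher than in shGFP cells after knockdown, in tables that were normalised separately.

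The other 5 kinases were not called with ciclopirox. CLK4 had 1162, 910 and 1303 normalised counts with ciclopirox and 758, 924 and 994 with DMSO, overlapping ranges with a log2 change of 0.33 ± 0.15 (limma adjusted p = 0.098), and it was called without ciclopirox replicate 2 (0.47, limma adjusted p = 0.0279). CLK1 had 2581, 2382 and 2847 with ciclopirox and 2183, 2468 and 2335 with DMSO, a change of 0.16 ± 0.10 (limma adjusted p = 0.221) that was called only under quantile normalisation (0.29, limma adjusted p = 0.033). CLK2 changed by 0.12 ± 0.11, CLK3 by −0.03 ± 0.10 and SRPK2 by −0.14 ± 0.09, with limma adjusted p of 0.389, 0.844 and 0.239, and their ranges overlapped those of DMSO. In all, 2 of 7 kinases were called, both lower, beside 48.5% of all genes called and 25.0% called lower. The log2 ratio of SRPK1 to SRPK2 was −0.102, −0.136 and −0.112 with ciclopirox and 0.534, 0.473 and 0.468 with DMSO, a difference of −0.61 with no overlap (exact permutation p = 0.1, the smallest that 3 against 3 allows, adjusted 0.133).

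**Figure D3:**
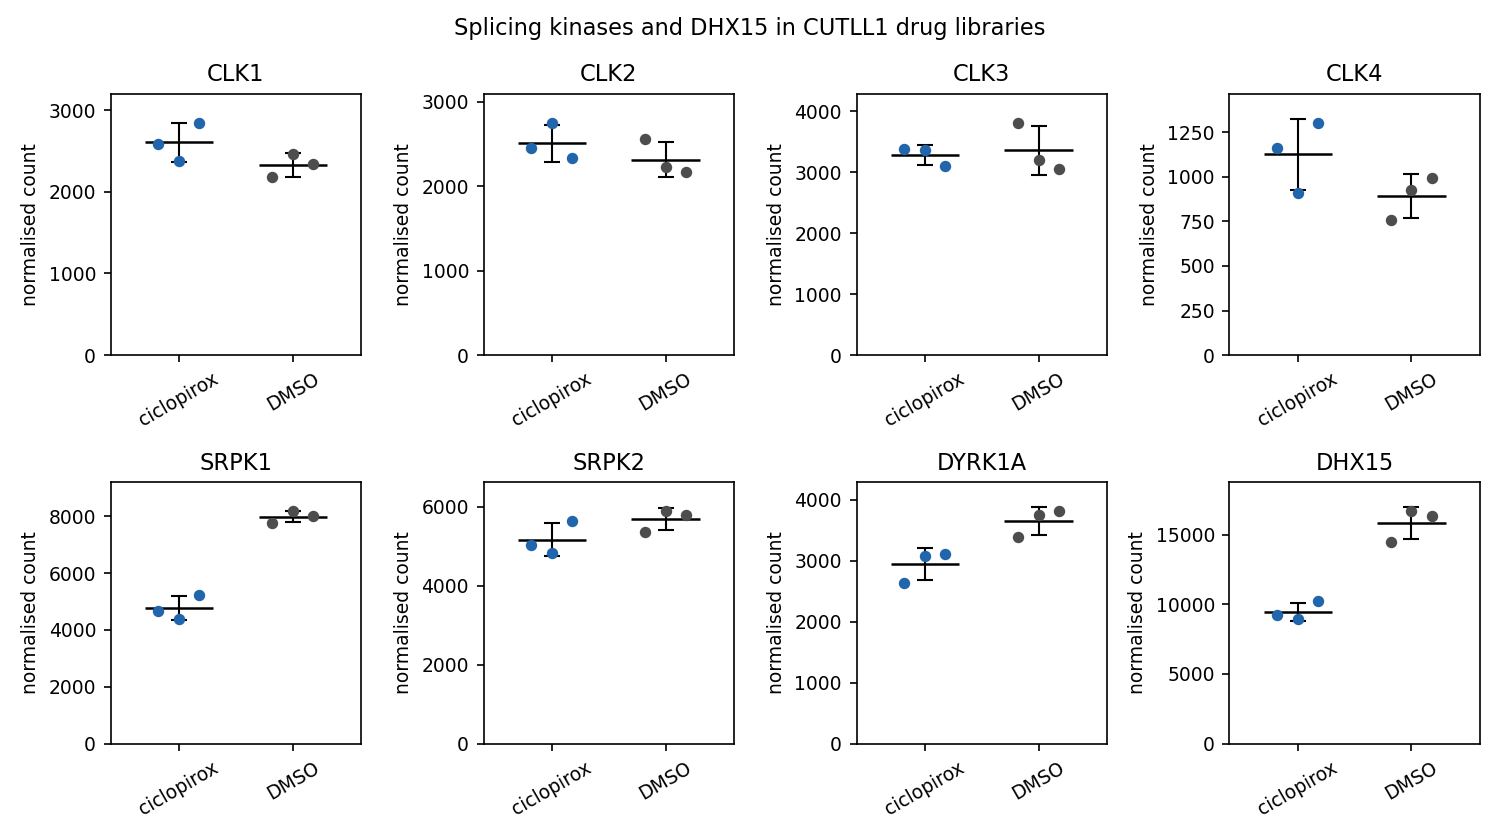
Normalised counts of the 7 kinases and DHX15 in each drug library (points), with the group mean (line) and SD (bar, n = 3). SRPK1, DYRK1A and DHX15 are lower in all 3 ciclopirox libraries than in all 3 DMSO libraries, and the other kinases overlap.

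**Figure D4:**
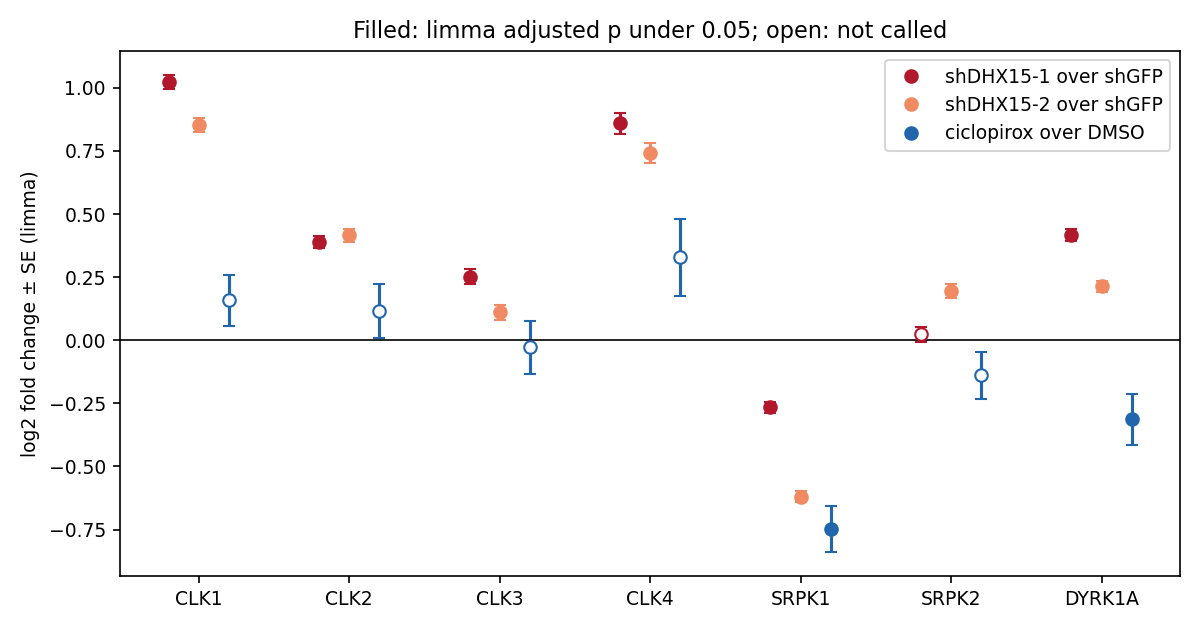
Log2 fold change of each kinase with shDHX15-1 and shDHX15-2 over shGFP and with ciclopirox over DMSO; bars are the SE from limma, filled points passed an adjusted p of 0.05 and open points did not. CLK1 and CLK4 have the largest rises with both hairpins, and SRPK1 lies below zero in all 3 comparisons.

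SRPK1 and DYRK1A were the kinases called both for the hairpin mean and with ciclopirox, so the genes nearest to them over all 15 libraries were named. Among 10658 genes tested in both tables, those nearest to SRPK1 were MTPN, with a root mean square difference of 0.0521 log2 units, and ANKRD40, with 0.0733, where the median gene was at 0.499. MTPN changed by −0.29 with shDHX15-1, −0.63 with shDHX15-2 and −0.69 with ciclopirox. Nearest to DYRK1A were KDM5D at 0.058 and HK2 at 0.0587, where the median gene was at 0.359. HK2, a hexokinase of glycolysis, changed by 0.48, 0.26 and −0.26 in the same 3 comparisons. MTPN, ANKRD40, KDM5D and HK2 were picked for nearness over these same libraries, so their likeness to the kinases follows from the choice.

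The genes around the kinases did not move in 1 direction after knockdown. Of 12 SR protein and TRA2 genes tested, the main substrates, 4 rose and 6 fell for the hairpin mean, with a median of −0.05 beside 0.06 for all genes. SRSF5 rose by 0.46 ± 0.01 (limma adjusted p = 1.26e-08), SRSF11 by 0.22 ± 0.02 (limma adjusted p = 3.59e-06; 0.41 with shDHX15-1 and 0.03 with shDHX15-2), and TRA2B fell by 0.44 ± 0.02 (limma adjusted p = 1.1e-07). SRSF2 fell by 0.05 for the mean, but its hairpins had opposite signs, −0.17 with shDHX15-1 and 0.07 with shDHX15-2. Of 28 other RS-domain genes 16 rose and 6 fell, with a median of 0.10, among them RBM25, a regulator of splice site choice, at 0.34 ± 0.03 (limma adjusted p = 8.12e-06) and SON, a speckle scaffold, at −0.18 ± 0.02 (limma adjusted p = 8.07e-06). Related kinases were split, with 7 of 15 tested higher and 7 lower, and DYRK1B rose by 0.63 ± 0.07 (limma adjusted p = 2.99e-05). Background shares for the mean were 42.6% called higher and 30.2% called lower.

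Genes of SR protein import and of the chaperones that hold SRPKs were mostly lower, with 2 of 12 up and 8 down for the hairpin mean and a median of −0.12. AHSA1, the activator of the HSP90 ATPase, fell by 0.95 ± 0.02 (limma adjusted p = 5.56e-09), and HSP90AA1 fell by 0.54 ± 0.01 (limma adjusted p = 5.07e-09), by 0.83 with shDHX15-1 but by 0.26 with shDHX15-2. Of 11 genes of phosphatases that act on SR proteins 3 rose and 8 fell, with a median of −0.13. PPP1CB, a catalytic subunit of protein phosphatase PP1, rose by 0.37 ± 0.02 (limma adjusted p = 1.35e-06), while PPP2R1B, a PP2A scaffold, fell by 0.43 ± 0.04 (limma adjusted p = 9.52e-06).

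With ciclopirox the same lists leaned down. Their medians include SRSF1 and CDK11A, which had values near the filter of 10 normalised counts in the drug libraries. SRSF1 had means of 14.0 with ciclopirox and 23.5 with DMSO, although it was at 195 RPKM with shGFP. CDK11A had means of 14.3 and 10.4, although it was at 14.0 RPKM with shGFP. The SR protein list had 0 genes up and 7 down of 12 (median −0.45), the other RS-domain list 1 up and 16 down of 28 (median −0.33), the import and chaperone list 1 up and 8 down of 11 (median −1.13), the phosphatase list 0 up and 8 down of 10 (median −0.41) and the related kinases 2 up and 6 down of 16 (median −0.21), beside a median of −0.02 for all genes and background shares of 23.5% called higher and 25.0% called lower. The largest falls among the genes of these lists were HSP90AA1 at −1.72 ± 0.09 (limma adjusted p = 4.14e-07), TNPO1, an importin, at −1.36 ± 0.15 (limma adjusted p = 4.47e-05) and AHSA1 at −1.27 ± 0.10 (limma adjusted p = 4.1e-06). RBM25 fell by 1.23 ± 0.16 (limma adjusted p = 0.000105), although it rose with both hairpins, and PPP1R10, a PP1 regulator, fell by 0.97 ± 0.10 (limma adjusted p = 2.66e-05) while it rose by 0.26 for the hairpin mean. CDK12, a kinase of RNA polymerase II, fell by 0.81 ± 0.11 (limma adjusted p = 0.00013). The related kinases called numbered 5 after quantile normalisation and without DMSO replicate 2, DMSO replicate 3 or ciclopirox replicate 1, and the other RS-domain genes called numbered 10 after quantile normalisation. DYRK4 and DYRK1B, DYRK family relatives, rose by 1.88 ± 0.15 (limma adjusted p = 3.95e-06) and 1.12 ± 0.19 (limma adjusted p = 0.000621). TRA2B and SRSF2 fell by 0.99 ± 0.08 (limma adjusted p = 4.48e-06) and 0.95 ± 0.08 (limma adjusted p = 8.58e-06).

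In the thymus the kinases differed by stage of T-cell development. Thymocytes pass from double negative (DN) stages through proliferation to CD4 CD8 double positive (DP) cells, which rest while they rearrange the T-cell receptor (TCR) alpha chain, and are then selected as single positive cells. After filters, 7397 KO cells with a median of 7074 UMIs (counted RNA molecules) and 8888 flox cells with a median of 3695 UMIs were clustered, and 17 cell barcodes occurred in both libraries. There is 1 library per genotype, so no test was made, and intervals are 95% exact Poisson intervals of the UMI sums that cover counting error only. The resting DP-like class made up 21.1% of KO and 62.8% of flox cells, and the DN2-3-like class 13.7% of KO and 1.04% of flox cells. Most KO cells of the resting DP-like class (1351 of 1560) came from cluster 2, and most flox cells from clusters 0 and 1 (3146 and 2010 of 5580). A share of 32.1% of KO and 7.09% of flox cells lay in unnamed clusters, the largest of them cluster 5 with 1083 KO and 12 flox cells.

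Among the 6 thymocyte classes plotted, Clk1 and Clk3 were highest in resting DP-like cells in both genotypes. Clk1 had 395 (379 to 412) CPM (UMIs per 1000000 UMIs of the class) in KO and 477 (467 to 487) in flox DP-like cells, against 117 (112 to 123) in KO and 119 (110 to 128) in flox S phase-like cells. Clk3 had 242 (229 to 255) in KO and 239 (232 to 246) in flox DP-like cells, and 38.7 (26.1 to 55.3) in KO and 44.9 (39.3 to 51.1) in flox mature single positive-like cells. Cluster 5, unnamed, also held high levels among KO cells, with 366 (351 to 382) of Clk1 and 157 (147 to 167) of Clk3. Clk4 was highest there too, with 116 (108 to 126) CPM in KO and 122 (117 to 127) in flox DP-like cells, and had 52.2 (48.8 to 55.8) in KO and 47.1 (41.5 to 53.2) in flox S phase-like cells. Srpk2 was highest in DP-like cells as well, with 143 (133 to 153) in KO and 159 (154 to 165) in flox. Srpk1 was low in DP-like cells, with 87.1 (79.5 to 95.2) in KO and 79.3 (75.4 to 83.5) in flox, and in KO DN2-3-like cells, with 82.8 (77.0 to 88.8) against 103 (83.8 to 124) in flox DN2-3-like cells. It had 168 (140 to 199) in KO and 203 (191 to 216) in flox mature single positive-like cells and 137 (132 to 143) in KO and 134 (125 to 144) in flox S phase-like cells.

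**Figure D5:**
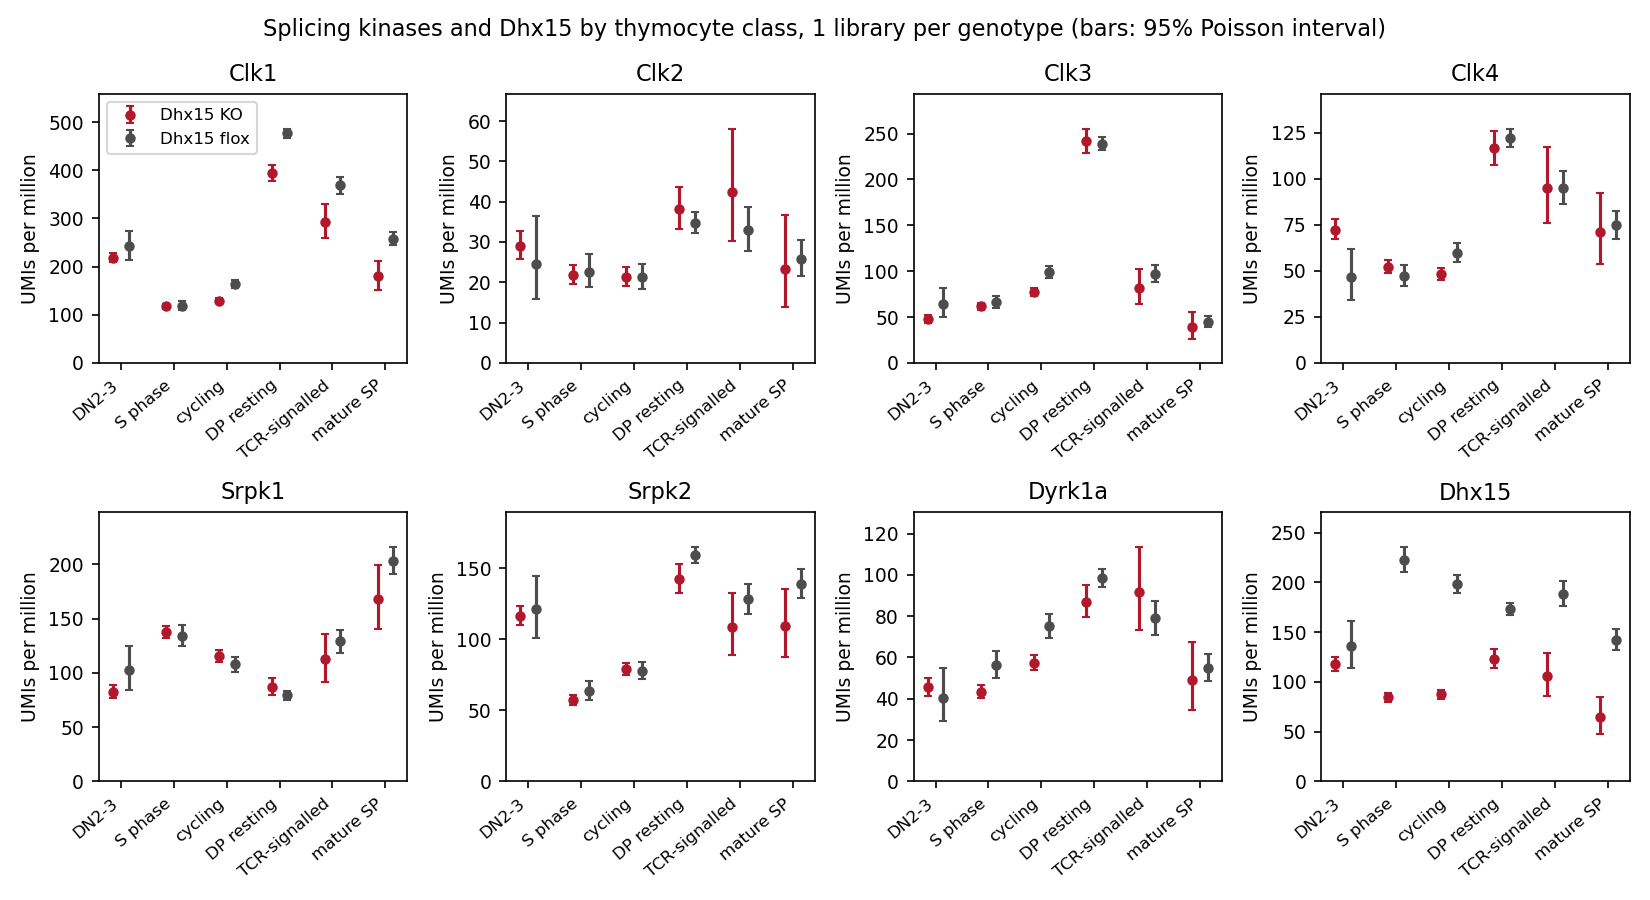
CPM (UMIs per 1000000) of each kinase and of Dhx15 in 6 thymocyte classes of the KO and flox thymus libraries, with 95% exact Poisson intervals (1 library per genotype). Clk1, Clk3 and Clk4 peak in resting DP-like cells, while Srpk1 is higher in S phase-like and mature single positive-like cells.

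Between genotypes, the whole libraries differed more for most kinases than resting DP-like cells did. Over all cells Clk1 had 187 CPM in KO and 318 in flox, a ratio of 0.588 (0.575 to 0.602), Clk3 a ratio of 0.592, Dyrk1a 0.700, Clk4 0.734, Srpk2 0.745, Clk2 0.835 and Srpk1 0.984. With each class given its weight in the flox library, the ratio was 0.825 for Clk1, 0.957 for Clk3, 0.887 for Dyrk1a, 0.970 for Clk4, 0.907 for Srpk2, 1.05 for Clk2 and 1.00 for Srpk1, while that of Dhx15 was 0.553 over all cells and 0.569 weighted. Within resting DP-like cells Clk1 was at 0.829 (0.790 to 0.868) of the flox level, Dyrk1a at 0.886 (0.800 to 0.980) and Srpk2 at 0.896 (0.827 to 0.969), and the intervals of Clk2, Clk3, Clk4 and Srpk1 held 1. These ratios rest on the clustering. At a Leiden resolution of 0.5 the DP-like class had 157 and 58 KO cells in its 2 clusters, against 1560 KO cells here. The largest unnamed cluster there held 2832 KO and 36 flox cells, and single cells were not followed between the resolutions. Clk2 turned from above to below the flox level, with 1.10 here and 0.909 at the resolution of 0.5. In cycling-like cells Clk1 was at 0.791 (0.740 to 0.847), Dyrk1a at 0.763 (0.690 to 0.844), Clk3 at 0.776 (0.711 to 0.847) and Clk4 at 0.810 (0.724 to 0.906). In S phase-like cells Clk1 was at 0.989 (0.904 to 1.08), Clk4 at 1.11 (0.963 to 1.28) and Dyrk1a at 0.768 (0.671 to 0.881). Clk4 was above the flox level in DN2-3-like cells at 1.56 (1.16 to 2.14), from 678 UMIs in KO and 47 in flox. Dhx15 itself was at 0.712 (0.655 to 0.773) of the flox level in DP-like cells, at 0.380 (0.352 to 0.411) in S phase-like cells and at 0.867 (0.726 to 1.04) in DN2-3-like cells, so its RNA was not shown to be lower in DN2-3-like KO cells.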

How the data were processed

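Poly(A)+ RNA-seq, RIP with ribosomal RNA removal and droplet single-cell RNA-seq were made per the labels' protocols; the submitters' processing notes name FastQC, STAR, DESeq2, DESeq, Cell Ranger, Scanpy, hg19, hg38 and mm10, with no role for each. The hairpin table holds RPKM as deposited by the authors, and 100% of values were whole reads within 1e-05. The drug table holds a normalised signal, gene counts divided by size factors, as deposited by the authors, whole within 0.01 reads. Its log2 fold change and p-value columns, deposited by the authors, were not used as a test. Peaks carry a fold ratio, p-value, FDR and score as deposited by the authors; starts count from 0 (46 lie 1 base below a RefSeq gene start, 2 on one), and 32 ends equal a GRCh38 gene end. Strand setting, peak caller and pooling were not given in the sources used here. Thymus matrices hold whole UMI counts as deposited by the authors.

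Libraries were grouped by titles and treatments. limma 3.58.1 with trend in R 4.3.3 was run on log2(RPKM + 1) over 9 libraries (at least 1 RPKM in 3). It was also run on log2(normalised count + 1) over 6 (at least 10 in 3). Tests were two-sided, with Benjamini-Hochberg adjustment over all genes and calls at 0.05. A run on simulated counts used the same dispersion for all genes and few changed genes, unlike these data, so it cannot vouch for the calls here. edgeR 4.0.16 and DESeq2 1.42.0 on recovered reads, other pseudocounts, no filter, median centring, quantile normalisation, left-out libraries and a replicate block were alternatives. Named genes were the 7 kinases, DHX15, at most 4 called genes per list by absolute change, and the 2 genes nearest to kinases called in both tables. Thymus cells needed 500 UMIs, 200 genes and under 10% mitochondrial UMIs, and doublets were not removed. Leiden clusters, made without the 7 kinase genes and Dhx15, were named from marker lists. The naming thresholds were set after the clusters were seen. The weighting by flox classes was chosen after seeing the data. The members and lists were chosen with earlier results of these data known.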

Additional observations from a re-analysis of the deposited data

Results flagged for a closer look

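CLK1 was higher in all 6 knockdown libraries of CUTLL1 than in the 3 shGFP libraries, while in resting DP-like thymocytes Clk1 of the KO library was at 0.829 of the flox level. DYRK1A was likewise higher in all 6 knockdown libraries, while Dyrk1a in resting DP-like KO thymocytes was at 0.886 of the flox level. Both are noted because the knockdown libraries and this 1 thymocyte class lay on opposite sides of their controls; the difference was not tested, and there is 1 thymus library per genotype. Clk1 was also below the flox level in cycling-like (0.791, 0.740 to 0.847), TCR-signalled-like (0.795, 0.696 to 0.905) and mature single positive-like cells (0.697, 0.581 to 0.830). Dyrk1a was below it in cycling-like (0.763, 0.690 to 0.844) and S phase-like cells (0.768, 0.671 to 0.881). Among the 6 thymocyte classes plotted, the other intervals of these genes held 1. Outside them Clk1 was also below the flox level in NK and innate-like cells (0.557, 0.438 to 0.712). The same held over all unnamed clusters (0.843, 0.794 to 0.896) and within unnamed cluster 11 (0.788, 0.658 to 0.948). No interval of Clk1 lay above 1 in any class or cluster. Dyrk1a was at 1.13 (0.818 to 1.60) in DN2-3-like and at 1.16 (0.904 to 1.48) in TCR-signalled-like cells. Clk1 was at 0.989 (0.904 to 1.08) in S phase-like cells. The intervals of Clk1 in DN2-3-like and of Dyrk1a in mature single positive-like cells held 1 too.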

How the results depend on the processing

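Over the alternatives, 506 values of a kinase's log2 change kept their sign and side of the threshold, 19 lost and 5 gained a call and 9 changed sign. SRPK2 with shDHX15-1 reversed under median centring (−0.085), edgeR (−0.068) and DESeq2 (−0.076) and without shDHX15-1 replicate 2, in a range of −0.0013 to 0.038 without single libraries. CLK3 with ciclopirox reversed under quantile normalisation (0.15) and edgeR (0.0032) and without DMSO replicate 1 or ciclopirox replicate 3 (range without single libraries −0.092 to 0.067), and SRPK2 with ciclopirox reversed under quantile normalisation (0.081). DHX15 between hairpins reversed under median centring (0.028), edgeR (0.028) and DESeq2 (0.025). The kinases called with ciclopirox numbered 1 to 3 without single libraries, against 2 in all, with 1 left without DMSO replicate 2, DMSO replicate 3 or ciclopirox replicate 1. Without single libraries the CLK1 to CLK4 difference ran from −0.094 to −0.035 for both hairpins and from −0.077 to −0.019 for shDHX15-1, lowest in size without shGFP replicate 2. Same-numbered libraries deviated together with correlations of −0.0006 to 0.0951 (hairpin) and −0.108 to 0.163 (drug). Differently numbered libraries had −0.123 to 0.0466 (hairpin) and −0.289 to 0.182 (drug). Whether equal numbers mark a pairing was not tested. The replicate block gave 6, 7, 7 and 6 called kinases for shDHX15-1, shDHX15-2, their mean and their difference and 2 with ciclopirox, as without it. At a fold of at least 2 the kinases had 0 peaks and 0 genes with a peak. In the thymus, leaving out the 5% of cells with the most UMIs gave KO over flox ratios of 0.550 for Clk1, 0.552 for Clk3, 0.697 for Clk4 and 0.704 for Srpk2, and means over cells gave 0.628 for Clk1 and 0.629 for Clk3. With classes weighted as in the flox library they were 0.825 for Clk1, 0.957 for Clk3, 0.970 for Clk4, 0.907 for Srpk2, 0.887 for Dyrk1a and 1.05, a reversal, for Clk2. At a resolution of 0.5 the DP-like ratios were 0.742 for Clk1 and 0.909 for Clk2, a change of direction, over a class that had lost most of its KO cells. The causes were not tested. Depth limits Clk2 and the smaller classes in the thymus.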
